A study of Mus musculus with 32 samples.

Results

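The 10 genes described here encode the structural core of basement membranes, and all of them had a row among the 21829 mouse genes of the deposited table. They were chosen by name: Col4a1, Col4a2, Col4a5 and Col4a6 encode chains of collagen IV, Lama4, Lamb1 and Lamc1 chains of laminin, Nid1 and Nid2 the nidogens, and Hspg2 the heparan sulfate proteoglycan perlecan. The samples were EL08-1D2 cells, a mouse mesenchymal stromal line used as a feeder layer for blood progenitors, as 16 libraries treated with azacitidine and 16 untreated libraries. Azacitidine is a cytidine analogue that is built into nucleic acids and lowers DNA methylation by trapping DNA methyltransferases. Dose and time are not given in the sources used here, every library comes from this line alone, and the labels leave unsaid whether each library is a culture of its own. The p-values therefore cover only the spread among these samples, which may be technical. Polyadenylated RNA was counted as unique molecular identifiers (UMIs), tags that let copies of a molecule made by PCR be counted a single time. Levels are given as CPM, the count of UMIs scaled to a library of 1e+06 UMIs by TMM, with n = 16 per group unless another n is stated.

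Basement membranes are thin sheets of matrix that underlie epithelia and endothelia and surround muscle, fat and nerve cells. Laminin trimers, built from an alpha, a beta and a gamma chain, bind cell surface receptors and polymerise into a first network. Collagen IV trimers form a second, covalently cross-linked network that gives the sheet its strength, and nidogens and perlecan bind to both. Collagen IV genes lie head to head in pairs, the members of a pair pointing away from a shared promoter region, so that their transcripts can be read from a common control region. Stromal cells supply collagen IV, nidogens and perlecan to the membranes of neighbouring cells.

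Transcripts of the collagen IV chains and of Nid1 were lower with azacitidine, and those of the laminin chains were not called in either direction. Of the 10 genes 5 fell and 0 rose (edgeR, quasi-likelihood, adjusted p under 0.05 by Benjamini-Hochberg over 9344 tested genes), against 2.00% of all tested genes that fell, 3.65% that rose and 5.65% called in all. DESeq2 and limma-voom gave the same counts of 5 and 0. The genes that fell were Col4a1, Col4a2, Col4a5, Col4a6 and Nid1. The median log2 fold change of the 10 genes, with over without azacitidine, was -0.36, beside 0.00 for all tested genes. No gene of the 10 had all its libraries with azacitidine below all those without, which 0.0107% of tested genes did.

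Totals ran from 1226861 to 5039721 UMIs with azacitidine and from 818619 to 3210801 without it. Libraries were more alike within a run of 4 replicate numbers (1 to 4, 5 to 8, 9 to 12 or 13 to 16) than between runs. Their mean correlation across genes, after removal of the group means, was 0.33 within and -0.16 between runs with azacitidine, and 0.08 within and -0.10 between runs without it. The labels do not say what a run is, so values within runs are given beside the pooled ones. With the spike-in RNAs as the scale, the median log2 fold change of all genes became 0.31. On that scale the median of the 10 genes was -0.02, 0 of them were called, where 0.0107% of genes fell and 3.79% rose, and the 5 genes that fell on the TMM scale had negative values from -0.31 to -0.07. The decreases on the TMM scale are thus stated relative to other genes. Spike-in RNAs made up 0.037% to 0.207% of the UMIs of a library with azacitidine and 0.078% to 0.198% without it. With so uneven a share, the spike-in scale does not settle whether absolute amounts fell.

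**Figure D1:**
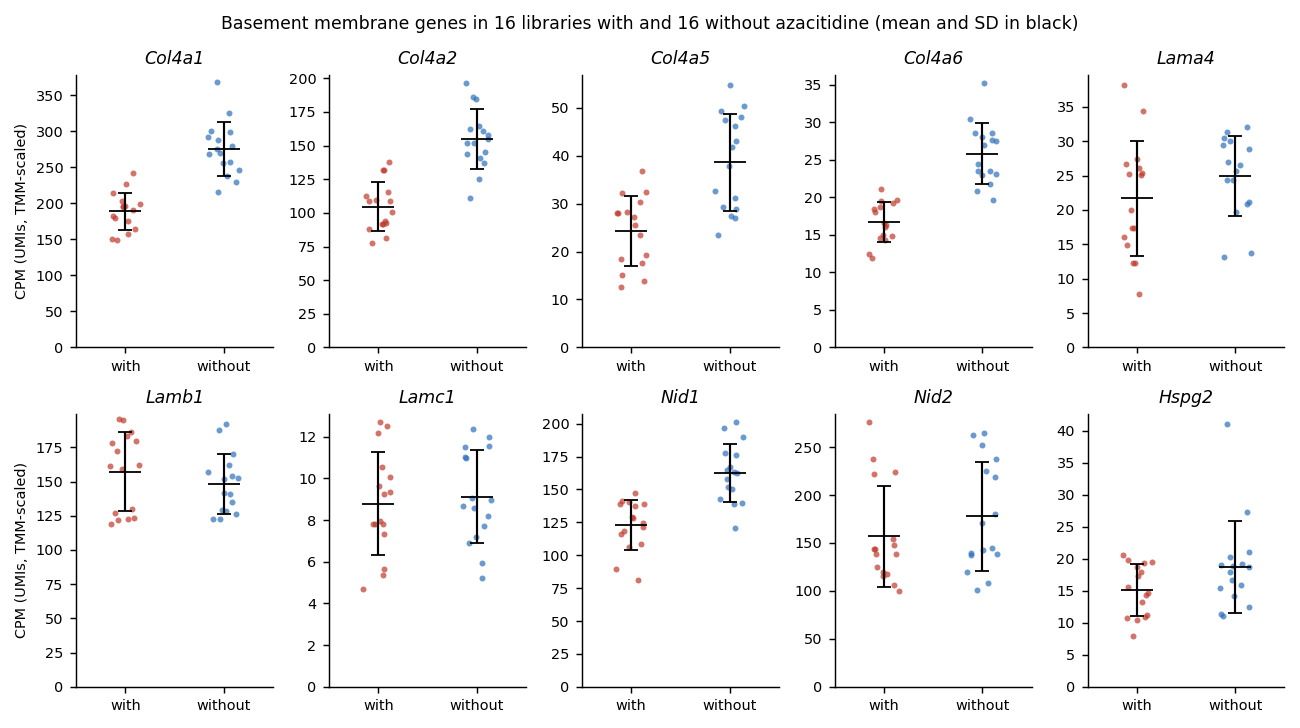
CPM (linear axes from 0) of the 10 basement membrane genes in the 16 libraries with and the 16 without azacitidine; each point is a library, and the black lines give the mean ± SD. The 4 collagen IV genes and Nid1 sit lower with azacitidine and overlap in part with the untreated libraries, as for Col4a1 with means of 188.9 CPM with and 275.5 CPM without the drug, while the clouds of the 3 laminin genes overlap.

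Col4a1 and Col4a2 encode the chains of the collagen IV trimer found in nearly all basement membranes. Both genes lie on mouse chromosome 8 (mm10, GENCODE M21 annotation): Col4a1 (ENSMUSG00000031502) from 11198423 to 11312826 on the minus strand and Col4a2 (ENSMUSG00000031503) from 11312805 to 11449287 on the plus strand. The annotated genes overlap by 22 bases at their starts. The stretch shown spans the annotated start of Col4a2 at 11312805 and ends just before that of Col4a1 at 11312826. It holds the match to CCCTCCCC and the last match to GGGCGG in the RefSeq window of Col4a2 (GRCm38.p6, chr8:11312791-11312820, plus strand, motif matches in capitals):
Col4a1 and Col4a2 start region: cCCCTCCCCtcggcagtgcgcGGGCGGcgt

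The windows of 300 bases around the starts (250 before and 50 after) held 37 CpG dinucleotides for Col4a1 and 33 for Col4a2. The median over 32851 such windows of the RefSeq table was 7 CpGs, and 94.4% of windows held fewer than that of Col4a1 and 91.4% fewer than that of Col4a2. GGGCGG, searched on both strands, occurred in 35.7% of all windows, CCAAT in 37.4% and CCCTCCCC in 10.8%. The Col4a1 and Col4a2 windows, which overlap each other, each held all 3. A match is a string of letters in the window and says nothing of a factor bound there.

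Col4a1 had 149.1, 192.6 and 241.6 CPM (lowest, median and highest library) with azacitidine, against 216.2, 272.7 and 367.9 CPM without it. All 16 treated libraries lay below the untreated median, 14 of them below every untreated library, and the groups overlapped at the edges. The mean was 188.9 ± 26.2 CPM with and 275.5 ± 37.7 CPM without azacitidine (SD), a log2 fold change of -0.55 (SE 0.07, adjusted p = 2.74e-07, edgeR), so that the treated level was 68.4% of the untreated one. Its partner Col4a2 had 77.4, 104.6 and 137.6 CPM with azacitidine, against 110.8, 153.1 and 196.8 CPM without it. The pattern was that of Col4a1, with all 16 treated libraries below the untreated median. The log2 fold change of Col4a2 was -0.57 (SE 0.08, adjusted p = 1.74e-06, edgeR), with means of 104.7 ± 18.3 CPM with and 154.6 ± 22.2 CPM without azacitidine.

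Col4a5 and Col4a6 form the X-linked pair. The Col4a5 chain takes part in the collagen IV of the glomerulus and of other specialised membranes, and in a further trimer with the Col4a6 chain around smooth muscle and in skin. Col4a6 (ENSMUSG00000031273) runs from 141165403 to 141474076 on the minus strand of chromosome X and Col4a5 (ENSMUSG00000031274) from 141475385 to 141689234 on the plus strand, with 1308 bases between their starts. The starts thus lie apart, unlike those of the chromosome 8 pair, and the sequence at each is shown for that contrast (RefSeq, GRCm38.p6, 5′ to 3′ in the direction of the gene, motif matches in capitals, on either strand). The first lies at chrX:141475300-141475399 on the plus strand and the second at chrX:141474066-141474165 on the minus strand:
Col4a5 start region: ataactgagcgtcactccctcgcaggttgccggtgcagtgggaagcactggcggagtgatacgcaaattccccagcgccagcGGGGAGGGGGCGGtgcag
Col4a6 start region: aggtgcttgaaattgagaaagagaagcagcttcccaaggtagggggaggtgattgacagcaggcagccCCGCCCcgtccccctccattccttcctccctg

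In Col4a5 the capitals join a CCCTCCCC match on the opposite strand with a GGGCGG match that overlaps it, and in Col4a6 they mark GGGCGG on the opposite strand. The 300-base windows held 11 CpGs for Col4a5 and 3 for Col4a6, of which 3 is the lower quartile of all windows. Windows were also found for Lamb1, with 18 CpGs, Nid1, with 20, and Hspg2, with 27, so 7 of the 10 genes had one. The 5 genes that fell therefore spanned windows of 3 to 37 CpGs.

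Col4a5 had 12.7, 26.4 and 36.8 CPM (lowest, median and highest library) with azacitidine, against 23.5, 39.8 and 54.8 CPM without it. All 16 treated libraries were below the untreated median, and 9 untreated libraries were above every treated one. Its log2 fold change of -0.68 (SE 0.15, adjusted p = 0.0019, edgeR) had the lowest estimate of the 10 genes and a wide 95% interval of -0.98 to -0.39. Col4a6 had 11.9, 16.5 and 21.1 CPM with azacitidine, against 19.7, 25.7 and 35.2 CPM without it. Its groups touched in a narrow range, with 15 of 16 treated libraries below every untreated one. The log2 fold change of Col4a6 was -0.62 (SE 0.09, adjusted p = 2.54e-06, edgeR), a treated level of 65.0% of the untreated one. The genes of the third head-to-head pair, Col4a3 and Col4a4, had no row among the mouse genes and could not be tested.

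The ratio of the genes within a head-to-head pair was not called between the groups. The log2 ratio of Col4a1 to Col4a2 UMIs in a library averaged 0.86 ± 0.21 with and 0.83 ± 0.10 without azacitidine (SD), a difference of 0.02 with a 95% interval of -0.09 to 0.14 (two-sided permutation test over libraries, p = 0.69, adjusted p = 0.70 over 6 ratios). The ratio ran from 0.57 to 1.25 with azacitidine and from 0.60 to 0.96 without it. It was not even across runs. In numbers 5 to 8 the ratio was higher with azacitidine by 0.32, and all 4 treated libraries lay above all 4 untreated ones. The exact permutation test there gave an unadjusted p = 0.029, the smallest that 4 against 4 libraries allow. Its adjusted p over 6 ratios was 0.057, so it was not called. In the other runs the ratio differed by -0.14, -0.04 and -0.04. The log2 ratio of Col4a5 to Col4a6 averaged 0.49 ± 0.46 with and 0.54 ± 0.37 without azacitidine, a difference of -0.06 with an interval of -0.36 to 0.24 (permutation test, adjusted p = 0.70). The interval of this ratio is wide, and a shift within it was not detectable with these counts.

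Library by library, Col4a1 and Col4a2 also varied together, and a like relation was not called for the X-linked pair. The log2 CPM of Col4a1 and Col4a2 correlated with Pearson's r = 0.59 with azacitidine (permutation p = 0.017, adjusted p = 0.035 over 4 relations) and r = 0.88 without it (p = 3e-05, adjusted p = 0.00012), with Spearman's rho = 0.70 with the drug (permutation p = 0.0037, adjusted p = 0.0075) and 0.84 without it (p = 0.00017, adjusted p = 0.00068). Without the 2 libraries farthest from the Col4a1 median, r was 0.63 with and 0.78 without azacitidine (permutation p = 0.015 with and 0.00092 without it). Centred on the run means, r was 0.47 with azacitidine, which no longer passed (permutation test, adjusted p = 0.13), and 0.81 without it. Spearman's rho centred on runs still passed with azacitidine, at 0.61 (permutation test, adjusted p = 0.027), and was 0.77 without it. For Col4a5 and Col4a6 r was 0.29 with and 0.38 without azacitidine (permutation test, adjusted p = 0.28 with and 0.20 without it). Its rho was 0.26 with and 0.31 without azacitidine (permutation test, adjusted p = 0.33 with and 0.32 without it). Without the 2 farthest libraries r was 0.02 with and 0.27 without azacitidine. Libraries of a run are not independent of each other, and Col4a5 and Col4a6 had fewer UMIs, in all 838 for Col4a5 and 628 for Col4a6 with azacitidine and 983 for Col4a5 and 681 for Col4a6 without it, against 6784 with and 7324 without it for Col4a1.

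**Figure D2:**
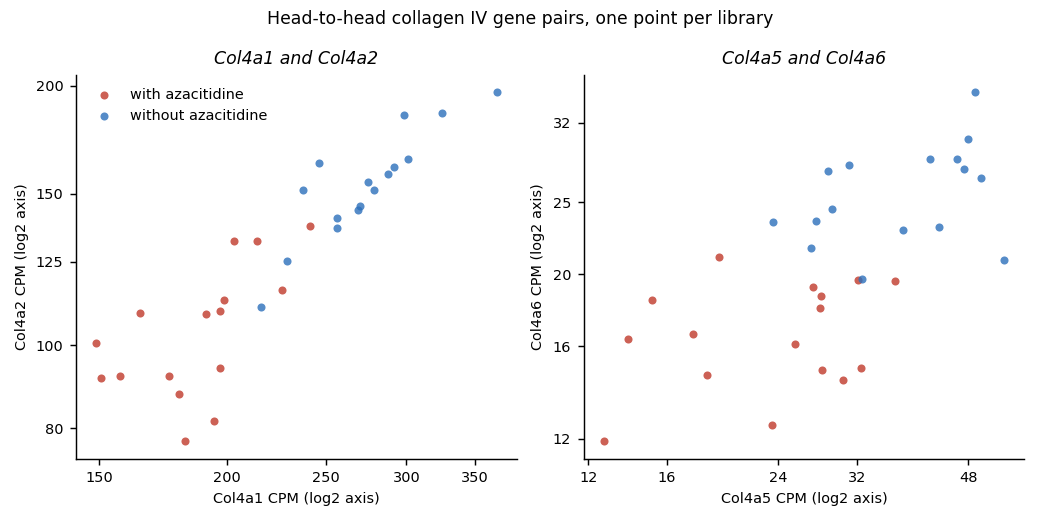
CPM (log2 axes) of the genes of each head-to-head collagen IV pair, 1 point per library with (red) or without (blue) azacitidine. Col4a1 and Col4a2 lie along a diagonal with r = 0.59 with and 0.88 without azacitidine, while Col4a5 and Col4a6 separate the groups and scatter more widely within them, with r = 0.29 with and 0.38 without it.

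As a description, Col4a2 ranked 2 of 9343 genes by its correlation with Col4a1 after removal of the group means (r = 0.72 over 32 libraries), and Col4a1 ranked 2 for Col4a2. Centred on run and group these ranks were 9 for Col4a2 and 4 for Col4a1 (r = 0.71). Col4a6 ranked 2403 for Col4a5 (r = 0.33), and 1736 when centred on run and group (r = 0.35). In the other direction Col4a5 ranked 548 for Col4a6, and 759 when centred on run and group. The 5 genes whose pattern was most like the mean of Col4a1 and Col4a2 were Tiparp, with r = 0.71, Shox2, with 0.68, and Pip4k2b, Peak1 and Klhl9, with 0.67 each. None of these 5 was called between the groups (edgeR). Nid1 ranked 270 (r = 0.47) and Lamc1 ranked 5148 (r = -0.05), and over all 45 pairs of the 10 genes r ranged from -0.51 to 0.81, with a median of 0.19. These values hold the differences between runs. Centred on run and group, Nid1 and Nid2 had r = 0.58 in place of -0.38, and Lamb1 and Lamc1 had r = 0.27 in place of 0.05.

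None of the laminin chain genes was called. Lamb1 encodes the beta1 chain and lies on chromosome 12 (31265234 to 31329644). It had 119.2, 161.5 and 195.7 CPM (lowest, median and highest library) with azacitidine, against 122.4, 146.8 and 192.4 CPM without it, and the groups covered the same range. Its log2 fold change was 0.08 (95% interval -0.08 to 0.25, adjusted p = 0.69, edgeR), and this interval lies above the estimate of each collagen IV gene. Lamc1, the gamma1 chain gene on chromosome 1 (153218922 to 153332786), was the lowest of the 10 genes, with 4.67, 8.58 and 12.7 CPM with azacitidine and 5.22, 8.83 and 12.4 CPM without it. Its groups overlapped throughout, with a log2 fold change of -0.05 and an interval of -0.33 to 0.22 (adjusted p = 0.91, edgeR).

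Lama4 encodes the alpha4 chain of laminins of blood vessels, fat, muscle and mesenchymal cells (chromosome 10, 38965515 to 39110188). It had 7.74, 22.6 and 38.2 CPM with azacitidine, against 13.2, 26.1 and 32.1 CPM without it, a log2 fold change of -0.21 (interval -0.53 to 0.12, adjusted p = 0.57, edgeR). The treated libraries were spread more widely on both sides. In numbers 5 to 8 the 4 treated libraries ran from 7.74 to 16.1 CPM, all below the 4 untreated ones at 21.2 to 29.96 CPM, whereas in numbers 9 to 12 they reached 26.7 to 38.2 CPM, against 24.4 to 32.1 CPM without the drug.

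The ratios of laminin chains to each other were not called either. The log2 ratio of Lamb1 to Lamc1 averaged 4.15 ± 0.48 with and 4.00 ± 0.40 without azacitidine (SD), a difference of 0.15 with an interval of -0.17 to 0.47, and that of Lama4 to Lamc1 averaged 1.22 ± 0.57 with and 1.41 ± 0.43 without it, a difference of -0.19 with an interval of -0.56 to 0.17 (permutation tests, adjusted p = 0.52 for both). On the scale of UMIs, which are not divided by transcript length because a molecule counts once, Lamb1 thus stood about 17.8-fold above Lamc1 with azacitidine and 16.0-fold without it. Whether molecules of both genes were captured equally well was not tested. To set collagen IV against laminin in the same library, the log2 ratio of Col4a1 to Lamc1 averaged 4.43 ± 0.45 with and 4.90 ± 0.45 without azacitidine, a difference of -0.47 (interval -0.79 to -0.14; permutation test, p = 0.0068, adjusted p = 0.041). It differed by -1.21, 0.04, -0.11 and -0.59 in the 4 runs, and without numbers 1 to 4 it was -0.22 and was not called (permutation test, adjusted p = 0.46).

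**Figure D3:**
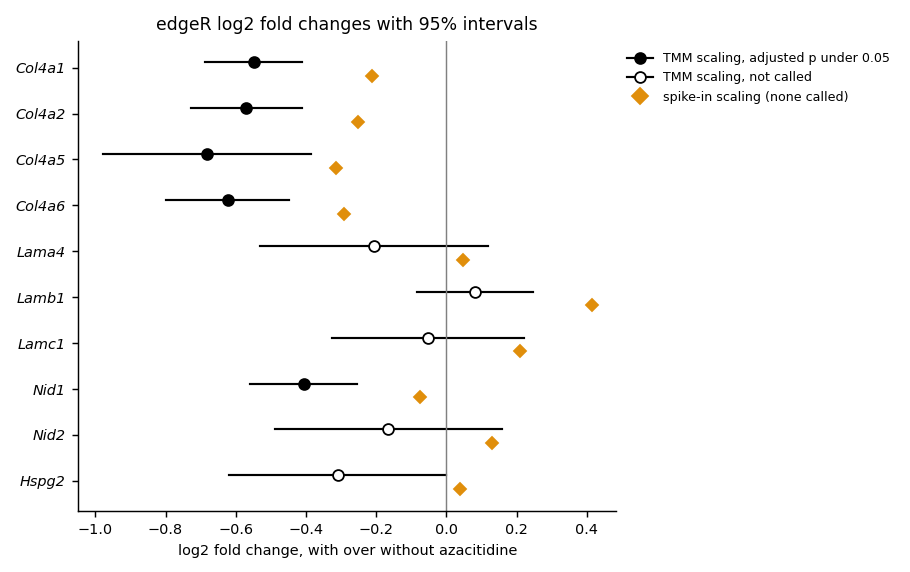
Log2 fold changes, with over without azacitidine, of the 10 genes on the TMM scale (black, with 95% intervals; filled circles passed the adjusted p threshold of 0.05) and on the spike-in scale (orange diamonds). The 4 collagen IV genes lie between -0.68 and -0.55 and Nid1 at -0.41 on the TMM scale, the intervals of the other genes hold 0, except that of Hspg2, which ends at -0.0012, and spike-in scaling moves every gene to the right.

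The nidogens are related glycoproteins that connect laminin with collagen IV. Nid1 was called lower with azacitidine and Nid2 was not called. Nid1 (ENSMUSG00000005397, chromosome 13, 13437551 to 13512269) had 81.0, 126.4 and 147.2 CPM (lowest, median and highest library) with azacitidine, against 121.0, 162.8 and 201.5 CPM without it. All 16 treated libraries lay below the untreated median and 12 untreated libraries above every treated one. Its log2 fold change was -0.41 (SE 0.08, adjusted p = 0.00029, edgeR). Nid2 (chromosome 14, 19751265 to 19811787) had 99.5, 141.1 and 275.9 CPM with azacitidine, against 100.7, 157.5 and 264.8 CPM without it. The groups overlapped over their whole range, and the log2 fold change was -0.17 (interval -0.49 to 0.16, adjusted p = 0.67, edgeR).

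The spread of Nid2 lay between runs rather than within them. In numbers 5 to 8 Nid2 stood at 126.8 ± 19.7 CPM with and 242.7 ± 19.2 CPM without azacitidine (SD, n = 4), a log2 fold change of -0.94 (edgeR within the run, adjusted p = 5.04e-08, where 3.36% of tested genes fell). In numbers 1 to 4 it stood at 239.8 ± 24.98 CPM with and 210.1 ± 43.6 CPM without the drug, and in numbers 9 to 12 at 121.7 ± 15.6 CPM with and 117.2 ± 17.1 CPM without it. The groups were therefore apart in a single run. Nid1 had log2 fold changes of -0.73, -0.25, -0.28 and -0.39 from the first run to the last (edgeR). The log2 ratio of Nid1 to Nid2 also differed between runs. It was lower with azacitidine by 0.94, 0.35 and 0.36 in numbers 1 to 4, 9 to 12 and 13 to 16. In numbers 5 to 8 it was higher by 0.72. Exact permutation tests gave an unadjusted p = 0.029 in each run, the smallest possible. After adjustment over 6 ratios the ratio was not called in any run. Over all libraries it averaged -0.30 ± 0.63 with and -0.07 ± 0.51 without azacitidine (permutation test, adjusted p = 0.52). The 3′ end of Nid2 overlaps that of Rtraf on the opposite strand over 437 bases, and strand use in counting is not stated, so UMIs of these genes could be exchanged. Rtraf itself was not called (log2 fold change -0.12, adjusted p = 0.13, edgeR).

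**Figure D4:**
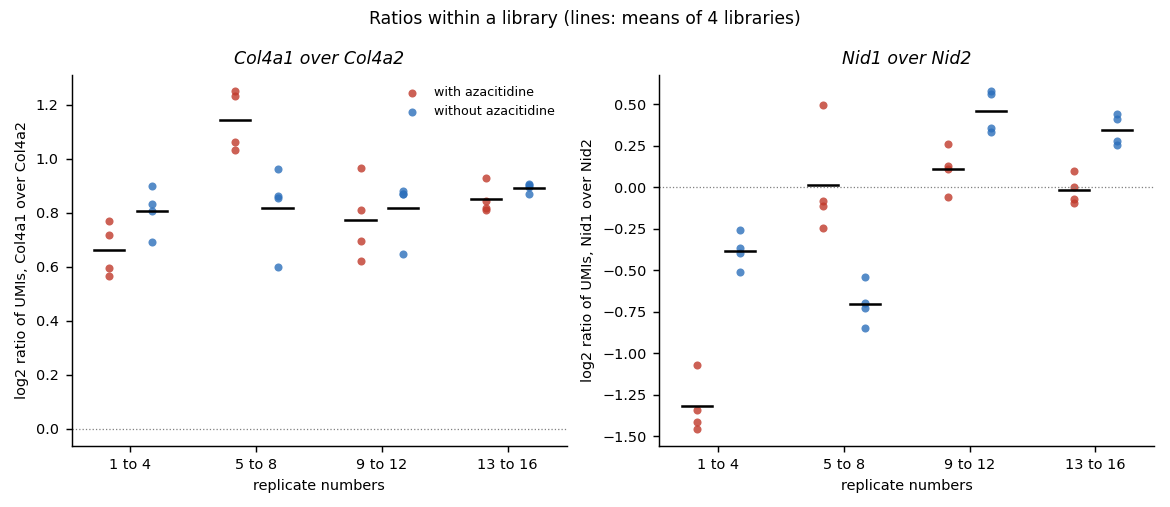
Log2 ratios of UMIs within a library for Col4a1 over Col4a2 and for Nid1 over Nid2, by run of replicate numbers; points are libraries with (red) or without (blue) azacitidine and lines are means of 4. The nidogen ratio is lower with azacitidine in 3 runs and higher by 0.72 in numbers 5 to 8, the run in which the Col4a1 to Col4a2 ratio is higher by 0.32. Neither ratio was called within a run at the adjusted threshold.

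Hspg2 (chromosome 4, 137468769 to 137570630) encodes perlecan, which binds growth factors through its heparan sulfate. It had 7.98, 15.2 and 20.6 CPM (lowest, median and highest library) with azacitidine, against 11.1, 18.3 and 41.0 CPM without it. The highest values came from untreated libraries, of which 3 lay above every treated one. The log2 fold change of -0.31 (interval -0.62 to -0.0012) did not pass the adjusted threshold (p = 0.049, adjusted p = 0.29, edgeR). It rested largely on numbers 1 to 4, where treated libraries stood at 10.1 ± 1.5 CPM and untreated ones at 24.9 ± 12.0 CPM (SD, n = 4). Without these numbers it was 0.01. Within the later runs it was 0.25 in numbers 5 to 8, 0.11 in numbers 9 to 12 and -0.34 in numbers 13 to 16.

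The size of the azacitidine effect differed between runs for 5 of the 10 genes, namely Col4a1, Col4a2, Lama4, Nid2 and Hspg2 (interaction term in edgeR, where 3.02% of tested genes passed). Col4a1 fell most in numbers 1 to 4, at 155.3 ± 7.1 CPM with and 316.8 ± 39.7 CPM without the drug (SD, n = 4), and stood at 221.4 ± 16.5 CPM with and 250.6 ± 22.2 CPM without it in numbers 9 to 12. Its log2 fold changes were -1.03, -0.47, -0.18 and -0.52 from the first run to the last, and those of Col4a2 were -0.88, -0.80, -0.14 and -0.48. Col4a6 was the most even, with -0.65, -0.66, -0.59 and -0.58 (interaction, adjusted p = 0.99), while Col4a5 had -1.17, -0.58, -0.38 and -0.59 (adjusted p = 0.51). The 4 collagen IV genes and Nid1 were lower in each of the 4 runs, as were 11.7% of the 8722 genes tested in every run.

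**Figure D5:**
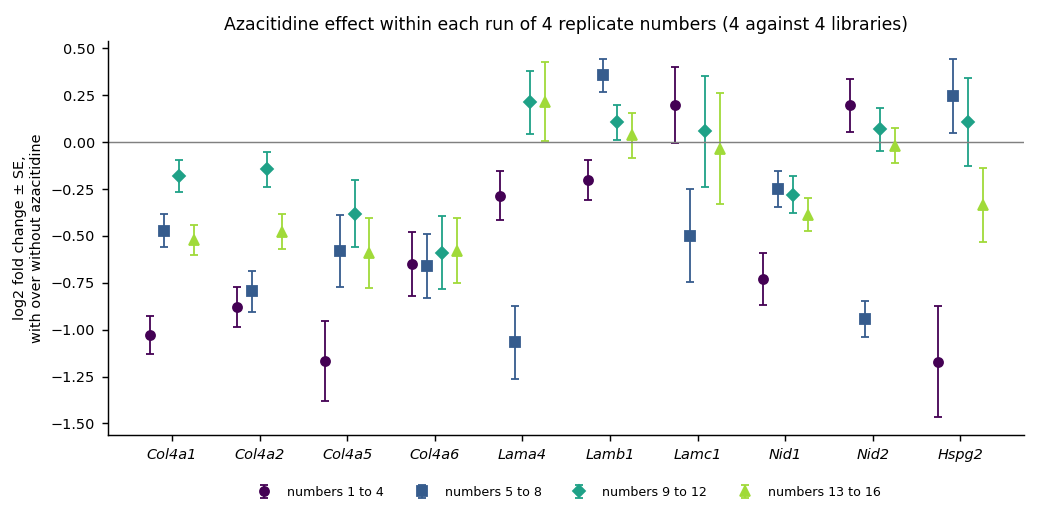
Log2 fold changes ± SE (edgeR, 4 against 4 libraries) of the 10 genes within each run of replicate numbers. Col4a6 stays between -0.66 and -0.58, Col4a1 ranges from -1.03 to -0.18, and Nid2 and Lama4 lie far below 0 in numbers 5 to 8 alone, at -0.94 and -1.07.

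Taken alone, with 4 libraries against 4, numbers 1 to 4 gave 4 of the 10 genes that fell and 0 that rose (Col4a1, Col4a2, Col4a5 and Nid1; edgeR, where 0.544% of genes fell and 1.96% rose). Numbers 5 to 8 gave 5 that fell (Col4a1, Col4a2, Col4a6, Lama4 and Nid2) and 1 that rose, Lamb1, at 171.1 ± 11.3 CPM with and 132.8 ± 13.2 CPM without azacitidine (SD, n = 4; 3.36% of genes fell and 3.25% rose). Numbers 9 to 12 gave 0 calls, where 0.281% of genes fell and 1.04% rose, and numbers 13 to 16 gave 3 that fell (Col4a1, Col4a2 and Nid1) and 0 that rose, where 1.66% fell and 2.26% rose.

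When UMIs were added up per run and group, which leaves 4 values a group, none of the 5 genes was called (edgeR, adjusted p between 0.054 for Col4a6 and 0.40 for Col4a5, where 0.0244% of genes fell and 0.855% rose). With the run as a further term all 5 were called (adjusted p from 0.0024 for Col4a6 to 0.047 for Col4a1, where 0.700% of genes fell and 2.56% rose).

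By level, Col4a1 was the highest of the 10 genes in both groups and Lamc1 the lowest. Col4a1 exceeded its nearest neighbour, Lamb1, in 16 of 16 libraries with azacitidine, and Nid2 in 14 of 16 without it. Lamb1, Nid2, Nid1 and Col4a2 followed at 104.7 to 157.3 CPM with and 148.4 to 177.7 CPM without azacitidine. In the order of means, neighbours among these 4 held their order in 10 or 11 of 16 libraries with and 8 to 11 without the drug. The spread thus does not separate neighbours in this order. With azacitidine Lamb1, the first of the 4, lay above Col4a2, the last, in every library. Col4a5, Lama4, Col4a6 and Hspg2 formed the low range, at 15.2 to 24.3 CPM with and 18.8 to 38.6 CPM without azacitidine.

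Of 27 listed genes for other basement membrane components edgeR tested 7 and called 0, as did DESeq2 and limma-voom. With 5.65% of all tested genes called, 0 of 7 lies near that share. Their median log2 fold change was 0.05. Sparc, a collagen-binding matrix protein, stood at 2523 ± 884 CPM with and 2445 ± 506 CPM without azacitidine, and Lamb2, the beta2 laminin chain gene, at 55.4 ± 18.3 CPM with and 59.0 ± 12.2 CPM without it. Col18a1, a basement membrane collagen outside the collagen IV family, had a log2 fold change of 0.18 (interval 0.03 to 0.34, adjusted p = 0.19, edgeR). Col18a1 and Npnt were the 2 genes whose unadjusted p lay under 0.05 in edgeR, both with positive values. Too low to be tested, Lama5, the alpha5 laminin chain gene, stood at 4.60 ± 1.48 CPM with and 4.54 ± 1.76 CPM without azacitidine, and Lama2, the alpha2 chain gene, at 2.57 ± 1.09 CPM with and 5.16 ± 2.07 CPM without it.

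Collagen chains are folded, secreted and cross-linked by a shared set of chaperones and enzymes. Of 18 tested genes of this set 1 rose and 0 fell, a share near the 5.65% of all tested genes called, and the median log2 fold change was 0.01. With the run as a term, a fit that called more of all genes in both directions, 2 fell (edgeR). The gene that rose was Plod1, a lysyl hydroxylase, with 212.1 ± 27.9 CPM with and 170.7 ± 15.3 CPM without azacitidine (log2 fold change 0.31, SE 0.06). Serpinh1, the collagen chaperone HSP47, stood at 2188 ± 310 CPM with and 2264 ± 278 CPM without azacitidine and was not called. Pxdn, the peroxidase that cross-links collagen IV, stood at 49.6 ± 9.5 CPM with and 55.2 ± 10.2 CPM without the drug and was not called. P4ha1, a prolyl hydroxylase subunit gene, had a log2 fold change of -0.15 (adjusted p = 0.15, edgeR).

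Of 8 tested receptor genes 1 fell and 0 rose, with a median log2 fold change of -0.07, where 2.00% of all tested genes fell and 3.65% rose. This was Ddr1, a receptor tyrosine kinase that binds collagens, including collagen IV, with 26.9 ± 3.7 CPM with and 35.7 ± 8.8 CPM without azacitidine (log2 fold change -0.41, SE 0.10, adjusted p = 0.0076, edgeR). Without numbers 1 to 4 Ddr1 was not called (adjusted p = 0.060, edgeR), nor with spike-in scaling (log2 fold change -0.045, adjusted p = 0.85, edgeR). Itgb1, the common beta chain of laminin- and collagen-binding integrins, stood at 108.4 ± 20.8 CPM with and 110.1 ± 17.8 CPM without azacitidine. Dag1, dystroglycan, had a log2 fold change of -0.34 (adjusted p = 0.10, edgeR).

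Among 14 tested proteases and inhibitors 3 fell and 1 rose, with a median log2 fold change of 0.13, where 2.00% of all tested genes fell and 3.65% rose. The balance turned with spike-in scaling, which gave 0 that fell and 3 that rose (edgeR, median 0.43). With the run as a term 4 fell and 4 rose, in a fit that called more of all genes in both directions. Adamts1, a secreted metalloproteinase, stood at 131.9 ± 25.1 CPM with and 189.9 ± 39.3 CPM without azacitidine (log2 fold change -0.53, SE 0.10). Timp3, a matrix-bound inhibitor, fell by 0.22 (SE 0.06) and Plau, urokinase, fell by 0.40 (SE 0.11) on the log2 scale, and neither was called on run sums once the run entered the fit (adjusted p = 0.22 for Timp3 and 0.076 for Plau, edgeR). Mmp10, stromelysin-2, rose by 1.17 (SE 0.33, adjusted p = 0.030, edgeR), with treated libraries between 2.34 and 32.8 CPM and untreated ones between 1.57 and 9.56 CPM. Without the lowest library of each group Mmp10 was not called (adjusted p = 0.061, edgeR), nor with limma-voom (adjusted p = 0.24). Mmp2, the gelatinase A that cuts collagen IV, stood at 1174 ± 223 CPM with and 1141 ± 166 CPM without azacitidine and was not called.

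Collagen IV genes are known targets of TGF-beta signalling. Of 13 tested genes of that pathway 1 rose and 0 fell, with a median log2 fold change of 0.00, where 5.65% of all tested genes were called. With the run as a term, a fit that called more of all genes in both directions, 2 fell (edgeR). The gene that rose, Tgfbi, a secreted TGF-beta-induced protein, stood at 88.9 ± 26.3 CPM with and 63.3 ± 17.9 CPM without azacitidine (log2 fold change 0.48, SE 0.14, adjusted p = 0.027, edgeR). Ccn2, also induced by TGF-beta, had a log2 fold change of -0.47 and was not called (adjusted p = 0.18, edgeR).

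Of 10 stromal markers 9 were tested, of which 3 fell and 0 rose, all 3 genes of fibrillar collagens. Over all tested genes, the share to set beside this and the other marker lists, 2.00% fell and 3.65% rose. Col3a1, a chain of collagen III, stood at 2849 ± 411 CPM with and 4460 ± 440 CPM without azacitidine, a log2 fold change of -0.65 (SE 0.07, adjusted p = 6.24e-09, edgeR). The collagen I chain genes Col1a1 and Col1a2 had log2 fold changes of -0.37 and -0.39 (adjusted p = 0.0014 for Col1a1 and 0.0010 for Col1a2, edgeR). The decrease was thus not limited to collagen IV, and whether it differed in size between these collagens was not tested. With spike-in scaling 0 of these stromal markers were called (edgeR, where 0.0107% of genes fell and 3.79% rose). The summed level of the stromal markers was 6260 to 10536 CPM with and 9111 to 12209 CPM without azacitidine, while Thy1 had 26 UMIs with and 0 without the drug. Of 7 endothelial markers 5 had a row, and their summed level was 0.24 to 2.97 CPM with and 0 to 1.46 CPM without azacitidine. Emcn had 18 UMIs with and 1 without it, Cdh5 8 with and 1 without, and Pecam1 6 with and 2 without. Tek had 2 UMIs with and 0 without azacitidine, and Vwf 4 in each group. Of 6 epithelial markers the 3 tested, Krt8, Krt18 and Krt19, rose, and the summed level was 71.9 to 148.4 CPM with and 2.92 to 9.90 CPM without azacitidine, with Epcam at 1 UMI with and 0 without it. Of 5 blood markers the 2 tested, Cd53 and Cd68, rose, with a summed level of 21.9 to 39.9 CPM with and 11.2 to 21.7 CPM without azacitidine and Ptprc at 4 UMIs with and 1 without it. Of 4 adipocyte markers the 1 tested, Fabp4, rose, with a sum of 4.68 to 21.0 CPM with and 0 to 9.47 CPM without the drug. Of 6 smooth muscle and pericyte markers 2 were tested and 0 were called (edgeR, with 0 at unadjusted p under 0.05), with a sum of 218.6 to 642.6 CPM with and 383.7 to 626.4 CPM without azacitidine. The part of these markers in the lower collagen IV levels was not tested. In bulk RNA, fewer cells with a transcript and less of it per cell cannot be told apart.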

How the data were processed

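Per the labels' protocols, column-purified RNA of EL08 cells was turned into barcoded cDNA, which was pooled and pre-amplified by a UMI method before a transposase-based library kit. STAR 2.4.0, bedtools 2.17.0 and mm10 are named per the submitters' processing notes; annotation, strand use and collapsing of UMIs are not given in the sources used here. The deposited values are counts of UMIs per gene and library.

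Of 21897 lines 68 were spike-in RNAs (0.106% of UMIs), kept out of library sizes and tests. GENCODE M21 gave a symbol to 21506 of 21829 genes. No pair of libraries in a group was alike within sampling noise (lowest chi-square per degree of freedom 1.11). The test was edgeR 4.0.16 (R 4.3.3; robust quasi-likelihood, TMM, default expression filter, 9344 genes with 98.8% of UMIs, two-sided, adjusted p under 0.05). CPM was computed from the deposited counts. Ratios used log2 of UMIs plus 0.5 and correlations log2 CPM with a prior count of 0.5, each with 100000 permutations. The test was tried on simulated counts. Alternatives included DESeq2 1.42.0 and limma 3.58.1. Python 3.11.15, numpy 2.4.6, pandas 2.3.3, scipy 1.17.1 and matplotlib 3.10.9 were used. The genes, lists and alternatives were chosen with earlier results of these data known. The rule named all 10 genes, up to 4 called genes of each other list in order of p, and the 5 genes most like Col4a1 and Col4a2; other listed genes were named after their values were seen, and some listed genes are not reported here.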

Additional observations from a re-analysis of the deposited data

Results flagged for a closer look

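The size of the azacitidine effect differed between the 4 runs of replicate numbers for 5 of the 10 genes by an edgeR test of the interaction. The adjusted p was 2.4e-05 for Nid2, 0.00012 for Col4a1, 0.0029 for Col4a2, 0.0036 for Lama4 and 0.027 for Hspg2. Col4a1 and Col4a2 were lower with azacitidine in all 4 runs and differed in size, while Nid2, Lama4 and Hspg2 also differed in sign. What the runs are is not given in the sources used here.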

How the results depend on the processing

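Of 19 alternatives for the test of genes, 4 of them single runs, Col4a1 and Col4a2 were called in 16, Nid1 in 15 and Col4a5 and Col4a6 in 14, with no change of sign. The count of 5 genes that fell became 0 with spike-in scaling, 0 with sums of runs, 0 in numbers 9 to 12 and 3 in numbers 13 to 16; in numbers 5 to 8 Lamb1 rose, 1 increase. Over all genes 341 rose and 187 fell. The other counts were 105 and 3 with sums of runs, 173 and 89 after thinning, 563 and 430 with the run as a term, 209 and 58 in numbers 1 to 4, and 92 and 25 in numbers 9 to 12. Numbers 5 to 8 gave 310 decreases, numbers 13 to 16 gave 212 increases, spike-in scaling gave 354 increases and 1 decrease, no filter gave 718 increases, and sums with a run term gave 86 decreases. Among the other basement membrane genes 1 increase was called with the replicate block, with the run as a term and with spike-in scaling, 1 decrease without a filter, at a mean of 5 UMIs and on sums with a run term, and 2 decreases and 1 increase in numbers 5 to 8. Among folding genes the block gave 1 decrease, the run term 2, numbers 5 to 8 gave 3 and numbers 13 to 16 gave 1. Among TGF-beta genes the block and the run term gave 2 decreases each and numbers 13 to 16 gave 1. The cause of these shifts was not tested.

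Signs turned as follows. With spike-in scaling Hspg2 was at 0.039, Lama4 at 0.046, Lamc1 at 0.21, Nid2 at 0.13 and Timp3 at 0.090. In numbers 1 to 4 Lamb1 was at -0.20, Lamc1 at 0.20 and Nid2 at 0.20; in numbers 5 to 8 Hspg2 at 0.25; in numbers 9 to 12 Hspg2 at 0.11, Lama4 at 0.21, Lamc1 at 0.059, Nid2 at 0.068 and Timp3 at 0.084; in numbers 13 to 16 Lama4 at 0.22. Without numbers 1 to 4 Hspg2 was at 0.012. None of these values was called.

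The Col4a1 to Lamc1 ratio was not called without the lowest library of each group (-0.45), without the 5 libraries that stood apart in an earlier account of these data, numbers 1, 2 and 4 with and 1 and 2 without azacitidine (-0.35), without numbers 1 to 4 (-0.22), with one value per run (-0.47) or within runs (-1.21, 0.039, -0.11 and -0.59). The other ratios turned sign without a call at the adjusted threshold. Col4a1 to Col4a2 was at -0.029 after thinning and at -0.14, -0.044 and -0.043 in numbers 1 to 4, 9 to 12 and 13 to 16. Col4a5 to Col4a6 was at 0.029 without those 5 libraries, 0.088 without numbers 1 to 4, and 0.12 and 0.20 in numbers 5 to 8 and 9 to 12. Lama4 to Lamc1 was at 0.23 and 0.084 in numbers 9 to 12 and 13 to 16. Lamb1 to Lamc1 was at -0.046 after thinning and at -0.40 and -0.035 in numbers 1 to 4 and 13 to 16. Nid1 to Nid2 was at 0.0027 without numbers 1 to 4 and at 0.72 in numbers 5 to 8. The correlation of Col4a1 and Col4a2 with azacitidine was 0.47 centred on runs.

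Nothing in the labels pairs the replicate numbers. Of 16 same-numbered pairs 12 had a correlation over 0.1, in a range from -0.28 to 0.82. Only 10 of 32 libraries correlated best with the library of their own number in the other group. With the replicate block 518 genes rose and 379 fell, the same count of 5 basement membrane genes fell, and the Col4a1 to Lamc1 ratio (-0.47) had an adjusted p = 0.062 (sign-flip permutation test).

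Low counts limit Lamc1, with 328 UMIs with and 241 without azacitidine, which was not tested after thinning.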
